A study of Mus musculus with 4 samples.

Results

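Zeb1, Zeb2, Snai1, Snai2 and Twist1 encode DNA-binding transcription factors, 4 of them zinc-finger repressors and 1 a basic helix-loop-helix factor, and were examined for the chromatin contacts listed for YAP-M tumor. The list came from H3K27ac HiChIP, in which chromatin fragments that lie close together in the nucleus are ligated and those carrying acetylated lysine 27 of histone H3, a mark of active promoters and enhancers, are pulled down. Of 99041 listed interactions, 185 had an anchor at 1 of these genes, and each of the 5 genes had at least 1. So had 67.8% of all autosomal coding genes. An interaction was assigned to a gene if either of its anchors, which are bins of 10 kb, overlapped the gene body or the 2.5 kb around either end. What is described was thus selected on the listed interactions themselves, so the counts below are a description of the list and carry no test.

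The labels describe 2 H3K27ac libraries of YAP-M tumor, from brain and of the genotype YAP-M fusion, and 2 H3K27ac libraries of mNSC, the name given to mouse neural stem cells grown with EGF and basic FGF. The mNSC genotype is spelled wile-type in the labels and is read here as wild-type. The titles of all 4 libraries call them ChIP-seq, while their extraction protocol names a HiChIP kit based on micrococcal nuclease, and the paired anchors of the list are what HiChIP yields. The list is read as that of the tumor from the letters YM in its name, it names no library, and the strain, the age and the promoter that drives the fusion were not given in the sources used here. It holds positions only, so the depth behind an interaction is unknown and no spread between replicates can be given. The mNSC libraries enter no comparison here.

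Zeb1 and Zeb2 are large proteins with a zinc-finger cluster near each end, and Snai1 (Snail) and Snai2 (Slug) are smaller proteins whose zinc fingers read the same E-box, CACCTG. Binding of these factors at E-boxes of epithelial genes such as Cdh1 (E-cadherin) recruits co-repressors and loosens cell junctions, the programme called epithelial-mesenchymal transition. In the developing nervous system the same families act in neural crest formation and migration, and Zeb2 is also known for roles in cortical progenitors, oligodendrocyte maturation and macrophages, microglia among them. Twist1 pairs with E proteins and acts in the mesoderm and cranial neural crest.

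Zeb2 had the most interactions, 91. Zeb1 had 65, Snai2 had 16, Snai1 had 12 and Twist1 had 1. The 2 ZEB genes thus held most of the 185 interactions, and the 3 short genes few. The median of the 5 genes was 16, beside 3 over all 20665 autosomal coding genes, of which 67.8% had at least 1 interaction by the same definition. Since that definition counts every bin of a gene, long genes collect more, and each gene was also set beside genes that span as many bins. Among 170 coding genes of 14 bins, whose median was 10, 4 had 91 interactions or more, Zeb2 itself included (2.35%). Among 71 genes of 20 bins, with a median of 11, 3 had 65 or more with Zeb1 among them (4.23%). Among 5970 genes of 2 bins, with a median of 1, the share with at least as many was 4.86% for Snai2, 8.64% for Snai1 and 54.5% for Twist1. Zeb1, Zeb2 and Snai2 thus lay in the upper tail of genes of their span, and Twist1 at the median of its own.

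**Figure D1:**
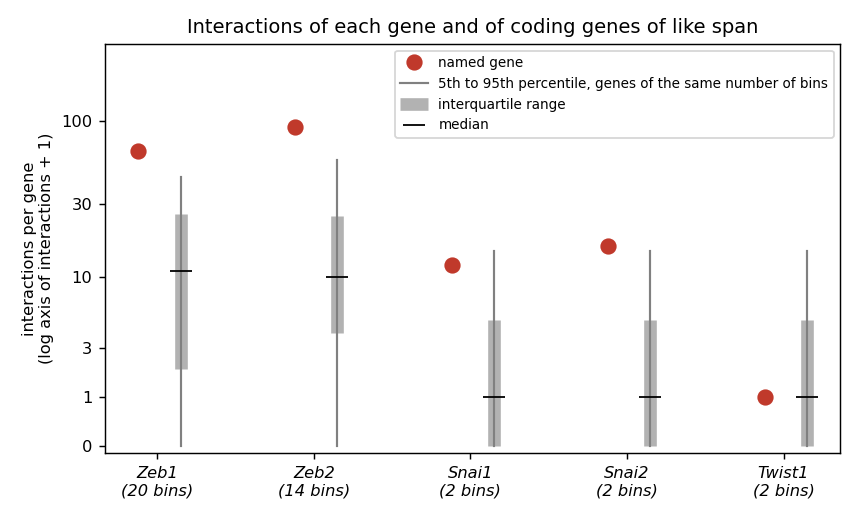
Interactions of each gene (red points) beside all other coding genes that span the same number of 10 kb bins (grey: thick bar, interquartile range; thin line, 5th to 95th percentile; tick, median), on a log axis of interactions + 1. Zeb1 (65), Zeb2 (91) and Snai2 (16) lie above the grey line, and Twist1 (1) lies at the median of its class.

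Many of these interactions were adjacent to one another. When neighbouring interactions (first anchors at most 1 bin apart, and second anchors likewise) were joined into contacts, Zeb1 had 20 contacts, Zeb2 had 17, Snai2 had 9, Snai1 had 2 and Twist1 had 1. The order of the ZEB genes was therefore turned round by joining, with Zeb1 first. Of the genes of 2 bins, 1.02% had as many joined contacts as Snai2 or more, and 37.7% as many as Snai1 or more.

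Zeb2 lies on chromosome 2 from 44983512 to 45117442 (mm10), 133931 bases in all, and is transcribed towards lower coordinates. Its interactions came almost entirely from 1 side of the gene body. The bin from 45110001 to 45120000, which holds the promoter end of the gene, had 74 interactions, a number that 5 of the 56427 anchors of the list reached, itself included. This bin also overlaps the non-coding RNA gene Zeb2os, whose part cannot be told apart in bins of this size. The neighbouring bin inside the gene, from 45100001 to 45110000, had 14. Of the other 12 bins of the gene, 2 had 2 interactions each, at 44980001 to 44990000 and 45040001 to 45050000, and 10 had none. Just outside the definition, the bin upstream of the gene that starts at 45120001 had 7 interactions, and the bin below the gene had 0.

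All 4 Zeb2 start sites in the RefSeq promoter table (GRCm38.p6, the assembly of mm10) lie in the bin with 74 interactions, at 45117442, 45113279, 45113253 and 45110277. The outermost and the innermost are shown because they bound the stretch of starts in that bin. Each covers 250 bases before the start and 50 from it, 5′ to 3′ on the minus strand, and capitals mark the motifs of AP-1 (TGANTCA), TEAD (CATTCC), NFI (its full palindrome), RBPJ (TGGGAA) and the E-box (CACCTG), searched on both strands.
Zeb2 outermost start, chr2:45117393-45117692, minus strand: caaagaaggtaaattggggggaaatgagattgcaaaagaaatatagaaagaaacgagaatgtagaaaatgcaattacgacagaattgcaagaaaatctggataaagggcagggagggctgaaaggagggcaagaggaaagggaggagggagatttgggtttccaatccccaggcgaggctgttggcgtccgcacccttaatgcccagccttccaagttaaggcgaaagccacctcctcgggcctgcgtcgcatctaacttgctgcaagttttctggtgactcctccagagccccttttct
Zeb2 innermost start, chr2:45110228-45110527, minus strand: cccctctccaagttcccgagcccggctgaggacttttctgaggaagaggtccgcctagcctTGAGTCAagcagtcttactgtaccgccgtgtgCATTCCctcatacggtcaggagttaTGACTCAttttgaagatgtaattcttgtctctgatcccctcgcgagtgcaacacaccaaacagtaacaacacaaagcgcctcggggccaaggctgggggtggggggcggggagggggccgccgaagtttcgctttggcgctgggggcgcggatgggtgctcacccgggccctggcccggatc

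The window of the innermost start held 2 AP-1 matches, which begin 189 and 132 bases before the start, and 1 TEAD match, which begins 157 bases before it. AP-1 is the dimer of Fos and Jun factors, and TEAD proteins are the DNA-binding partners of YAP. Over the 32851 promoter windows of the table, 7.81% held an AP-1 match, 14.7% a TEAD match, 1.26% both an AP-1 and a TEAD match, 0.460% at least 2 AP-1 matches, and 25 windows (0.0761%) at least 2 AP-1 matches together with a TEAD match. These combinations were chosen after the matches in this window, 1 of 4 searched at Zeb2, were seen. The window of the outermost start held none of the 5 motifs, of which that of NFI is the rarest, at 0.807% of all windows. The windows of the start at 45113279 and of the start at 45113253 share most of their bases, and a single RBPJ match, which 25.6% of all windows hold, was found in the one at 45113253. A match in letters is a description of the window and does not show that a factor binds there.

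The Zeb2 contacts ran upstream. Of the 91 interactions, 81 joined the gene to higher coordinates, 9 to lower coordinates and 1 joined its own ends. The 74 interactions of the promoter bin were split 68 to higher and 6 to lower coordinates. Among the 12 anchors of the list with at least 60 interactions, 75.0% had at least 90% of them on 1 side, so the imbalance was usual for an anchor of this size. The upstream side is a gene desert. The nearest coding gene at higher coordinates, Acvr2a, an activin receptor gene, starts 3697 kb away. No listed interaction spans more than 1000 kb, so the 69 partner bins on that side could hold no end of a different coding gene. Partners reached 950 kb upstream.

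The promoter bin was in contact with many bins of the desert. Of the 99 bins at 20 to 1000 kb upstream that the distance range of the list allows, 68 (68.7%) were in contact with it. By distance, 14 of 23 bins were in contact at 20 to 240 kb, 23 of 25 at 250 to 490 kb, 19 of 25 at 500 to 740 kb and 12 of 26 at 750 to 1000 kb. The filling was thus highest in the class of 250 to 490 kb and lower both nearer to and farther from the gene. The longest unbroken run of partner bins was 18 bins, from 45340001 to 45520000. On the lower side, 6 of 99 bins were in contact.

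Most partners of the promoter bin had no other listed interaction. Of its 74 partners, on either side, 42 (56.8%) had the interaction with this bin as their only one. The same held for 15.9% of the partners of all anchors with at least 10 interactions. Those anchors were not matched to this bin in number of interactions, distance or gene density, so the shares are not on equal terms. Among the 75 partner bins of the whole gene, only 5 pairs were listed as interacting with each other. Bins that Zeb2 reached from several of its own bins were fewer. Those at 45230001 to 45240000 and at 45240001 to 45250000 interacted with 3 bins of Zeb2 each, among them the bin inside the gene at 45040001. Both overlap Vis1, annotated as a miscellaneous RNA gene at 45238980 to 45282913. All 6 bins that Vis1 overlaps were partners, with 12 of the interactions of Zeb2. The long non-coding RNA gene Gm13479 (45390314 to 45438836) overlapped another 5 partner bins with 5 interactions.

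On the lower side, the partners of Zeb2 lay in or beside 2 neighbouring genes. Gtdc1, a glycosyltransferase-like gene 55.8 kb away, had partner bins at both of its ends, with 4 interactions to Zeb2. The bin from 44920001 to 44930000 at one of these ends had 14 interactions in all, of which 3 were with Zeb2, from the bins at both ends of the gene and the bin beside the promoter. Another 2 partner bins lay inside Arhgap15, with 3 interactions at up to 970 kb. By the same definition Zeb2 had 91 interactions in all, against 16 at Gtdc1 and 27 at Arhgap15.

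**Figure D2:**
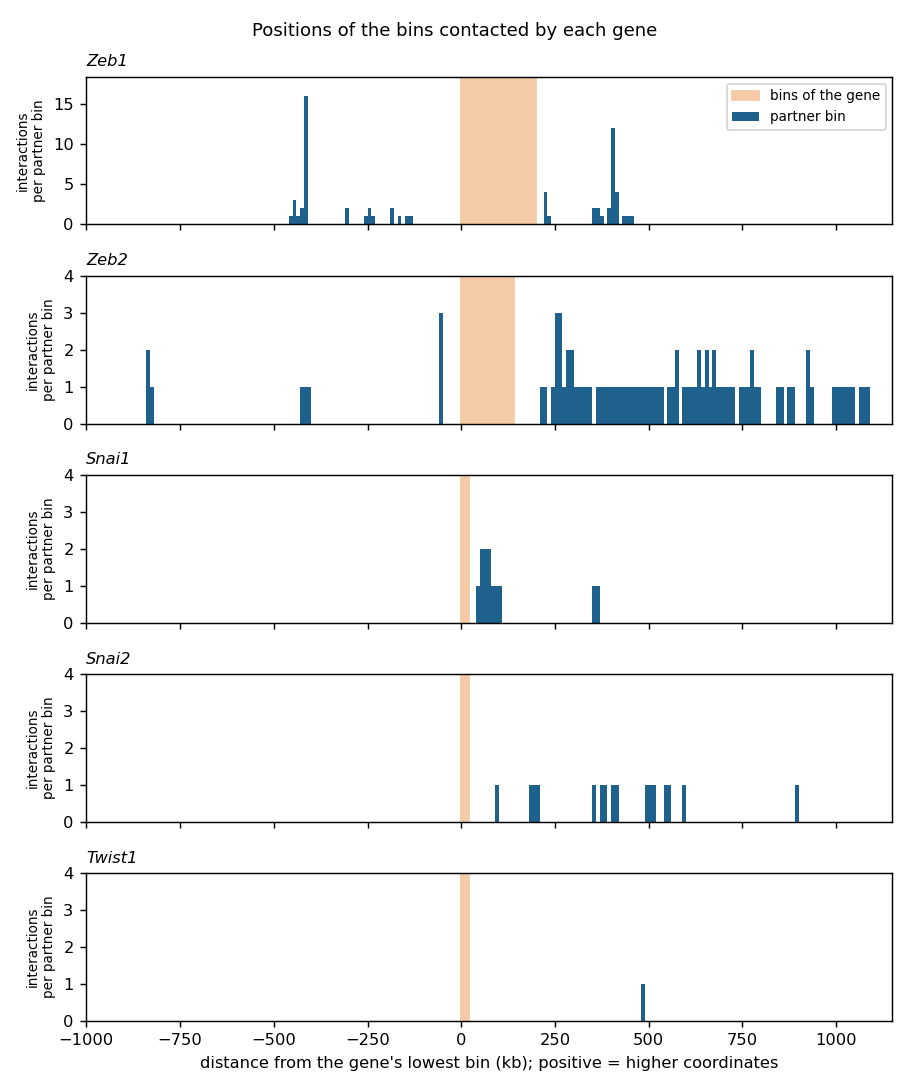
Number of interactions with each partner bin (blue bars, 10 kb each) by its distance in kb from the lowest bin of the gene, with the bins of the gene shaded. Zeb1 has 1 tall partner on either side (16 and 12 interactions), Zeb2 has most of its partners at higher coordinates, and the partners of Snai1, Snai2 and Twist1 all lie at higher coordinates.

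Zeb1 lies on chromosome 18 from 5591327 to 5775468, a length of 184142 bases. Its contacts were arranged differently from those of Zeb2. They came from nearly the whole gene, as 19 of its 20 bins had an interaction, against 4 of 14 bins at Zeb2. They ran to both sides, with 34 interactions to lower and 31 to higher coordinates, and they reached 600 kb and 440 kb. Only 24 bins were partners of Zeb1, against 75 of Zeb2, and no interaction joined 2 bins of the gene. The median distance of the interactions was 380 kb at Zeb1 and 460 kb at Zeb2, beside 180 kb over the whole list.

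Within Zeb1, the bin from 5590001 to 5600000 at the low-coordinate end had 19 interactions, 12 to lower and 7 to higher coordinates, and the next bin had 13. Together they took part in 32 of the 65 interactions (49.2%). A second rise lay inside the gene, at 5680001 to 5690000 with 8 interactions and at the bin after it with 4. Each other bin of the gene had 3 or fewer. The bins just outside the definition, below and above the gene, had 0. The low-coordinate end also holds the end of the long non-coding RNA gene Gm10125, whose part cannot be told apart in bins of this size.

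A pair of partner bins, 1 on each side, held 28 of the 65 interactions of Zeb1 (43.1%). The bin from 5160001 to 5170000, between Svil and Zfp438, had 42 interactions, all to higher coordinates, and 16 of them were with Zeb1. The bin from 5980001 to 5990000, between Zeb1 and Arhgap12, had 33 interactions, all to lower coordinates, and 12 of them were with Zeb1. The first touched 16 of the 20 bins of Zeb1, the second touched 12, and 9 bins of the gene were touched by both. These 2 bins lie 820 kb apart and were themselves listed as interacting. Between them lie 81 bins, of which 36 interacted with the lower bin and 28 with the higher. The first overlaps the long non-coding RNA gene Gm26682 (5162839 to 5165731), and neither held an end of a coding gene.

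Without these 2 partners Zeb1 had 37 interactions, 28 of them from the 2 bins at its low-coordinate end. Over all its 24 partner bins, the list held 52 interactions between pairs, of which 25 joined pairs of the 22 bins other than these 2, against 5 between pairs of the 75 partner bins of Zeb2. Only 2 of the 24 bins (8.33%) had no interaction except those with Zeb1, against 46 of 75 (61.3%) for Zeb2. At 3 partner bins lay an end of a different coding gene. These genes were Svil, encoding the actin-binding protein supervillin, with 1 interaction, Zfp438, encoding a zinc-finger protein, with 2, and Arhgap12, with 1. By the same definition Zeb1 had 65 interactions in all, against 22 at Svil, 17 at Zfp438 and 12 at Arhgap12.

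**Figure D3:**
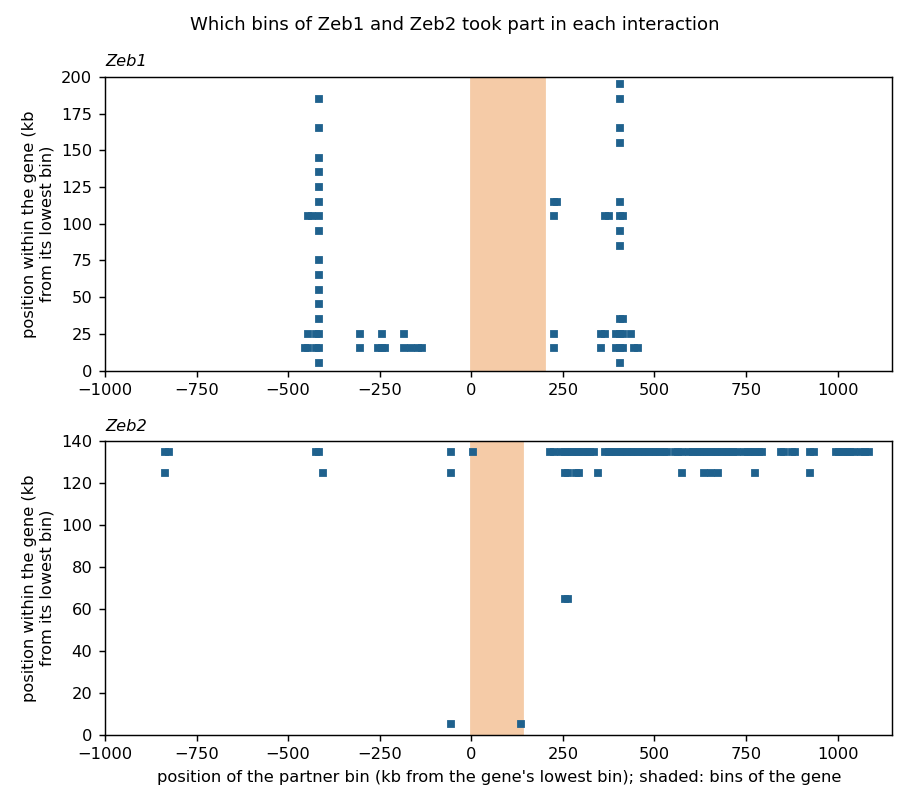
Each square is an interaction, drawn at the position of its bin within Zeb1 (upper panel) or Zeb2 (lower panel) and at the position of its partner bin, both in kb from the lowest bin of the gene. Zeb1 shows vertical columns, in which 1 partner meets up to 16 bins of the gene, and Zeb2 shows a horizontal row, in which 1 bin of the gene meets 74 partners.

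Snai2 lies on chromosome 16 from 14705852 to 14709395 and is 3544 bases long. All 16 of its interactions came from the bin that holds the gene, 14700001 to 14710000, and each went to a different bin at higher coordinates. They lay between 90 and 890 kb away, with a median of 405 kb. Among the 3801 anchors with at least 10 interactions, 49.4% had all of them on 1 side, so this is common in the list. The contacts were spread over 99 allowed bins as 4 of 23 at 20 to 240 kb, 6 of 25 at 250 to 490 kb, 5 of 25 at 500 to 740 kb and 1 of 26 at 750 to 1000 kb. Zeb2 filled more of each distance class than Snai2 did.

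Snai2 resembled Zeb2 in the share of its partners that had no other interaction. Of the 16 partner bins, 11 (68.8%) had no interaction except that with Snai2, against the 15.9% given above. That reference was likewise not matched to Snai2 in number of interactions, distance or gene density. An end of a different coding gene lay in 2 of them. One is Efcab1, a gene of motile cilia 197 kb away, and the other is Ube2v2, a ubiquitin-conjugating enzyme variant 842 kb away, each with 1 interaction. That single interaction with Snai2 was also the only one at either of these genes. In 12 of the 16 interactions (75.0%), Efcab1 lay wholly between the anchors, whereas 43.6% of all listed interactions had a coding gene between their anchors. The same share was 4.40% at Zeb2, 36.9% at Zeb1 and 16.7% at Snai1. Distance was not matched in these shares, as the median was 405 kb at Snai2 and 180 kb over the whole list. All interactions of Snai2 also ran to the side of Efcab1. The neighbouring bins on either side of the Snai2 window had 0 interactions.

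**Figure D4:**
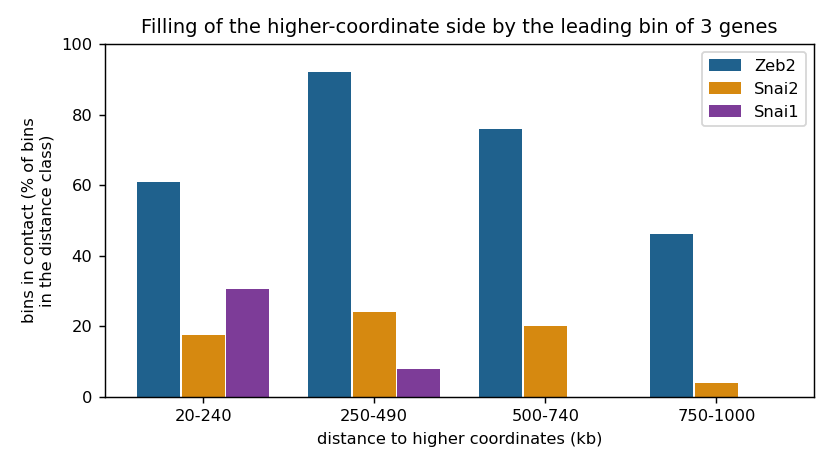
Share of the 10 kb bins in each distance class, at higher coordinates, that were in contact with the leading bin of Zeb2, Snai2 and Snai1 (bars start at 0). Zeb2 reached 92.0% at 250 to 490 kb, Snai2 stayed at or under 24.0% in every class, and Snai1 had no contact from 500 kb on.

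Snai1 lies on chromosome 2 from 167538195 to 167542814, a length of 4620 bases, and is transcribed towards higher coordinates. Its 12 interactions were the shortest of the 5 genes, with a median distance of 65 kb and a range of 40 to 360 kb. The bin from 167530001 to 167540000, which holds the start site, had 9 interactions and the next bin had 3, all to higher coordinates. In contrast to Zeb1 and Zeb2, the surroundings are rich in genes, with 24 other coding genes within 1 Mb, against 9 around Zeb1, 2 around Zeb2, 18 around Snai2 and 7 around Twist1. The promoter of Snai1 is shown because its start lies in that bin and because it holds the E-box that the SNAIL and ZEB proteins read. It is in RefSeq GRCm38.p6, on the plus strand, with the same bases before and after the start and the same motifs in capitals.
Snai1, chr2:167537945-167538244, plus strand: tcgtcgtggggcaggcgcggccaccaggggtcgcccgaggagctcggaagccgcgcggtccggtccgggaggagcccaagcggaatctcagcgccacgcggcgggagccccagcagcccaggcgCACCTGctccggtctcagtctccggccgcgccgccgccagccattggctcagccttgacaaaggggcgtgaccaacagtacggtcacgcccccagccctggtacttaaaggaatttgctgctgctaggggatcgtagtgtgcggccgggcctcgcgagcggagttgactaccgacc

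The E-box begins 126 bases before the start, and 20.2% of all promoter windows hold one. No match to the other 4 motifs was present in these letters. Of the 9 partner bins of Snai1, 7 formed an unbroken run from 167570001 to 167640000, downstream of the gene. They overlapped the long non-coding RNA gene Gm11476 and then Ube2v1, another ubiquitin-conjugating enzyme variant gene, which had ends in 4 of the partner bins with 5 interactions. The other 2 partner bins, from 167880001 to 167900000, had 22 and 19 interactions in all, of which 1 each was with Snai1. Those interactions with Snai1 passed over Ube2v1, Tmem189 and Cebpb. Partners of the same pair of bins included ends of Ube2v1, Tmem189 and Cebpb, a leucine-zipper factor gene. By the same definition Snai1 had 12 interactions, against 40 at Cebpb, 26 at Tmem189 and 24 at Ube2v1.

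Twist1 lies on chromosome 12 from 33957671 to 33959831 and is 2161 bases long, transcribed towards higher coordinates. It had a single interaction, from the bin of 33950001 to 33960000 that holds its start to the bin of 34430001 to 34440000, 480 kb away. The partner lies inside Hdac9, the neighbouring histone deacetylase gene, 382 kb from its low-coordinate end. Hdac9 is known from limb and craniofacial development to hold enhancers of Twist1 in its introns and exons. The interaction had no adjacent interaction, as was the case for 10.1% of the list. The partner bin had 3 other partners, at 33430001, 34030001 and 34040001, of which the first overlaps Twistnb and the others lie at or beside the low-coordinate end of Hdac9. Hdac9 itself had 42 interactions, 37 of them to higher coordinates away from Twist1. Ferd3l, another basic helix-loop-helix gene 28.4 kb from Twist1, had 0. Depth is unknown, so further contacts of Twist1 were not detected here and may exist.
Twist1, chr12:33957421-33957720, plus strand: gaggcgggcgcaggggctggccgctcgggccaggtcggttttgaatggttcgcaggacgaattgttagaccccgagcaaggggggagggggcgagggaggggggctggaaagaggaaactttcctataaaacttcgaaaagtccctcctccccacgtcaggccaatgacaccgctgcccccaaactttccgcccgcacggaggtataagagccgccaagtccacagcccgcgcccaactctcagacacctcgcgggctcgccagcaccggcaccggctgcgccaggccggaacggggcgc

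The Twist1 window is printed to set the promoter of the gene with the fewest contacts beside those of Zeb2 and Snai1. It held no match to the E-box or to the AP-1, TEAD, NFI and RBPJ motifs. Its GC content was 66.0%, against 70.0% for Snai1 and 49.3% and 60.7% for the outermost and innermost windows of Zeb2.

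Over the 5 genes together, few partner bins lay at an end of a different coding gene. At 11 of 125 partner bins (8.80%, exact 95% interval 4.48 to 15.2%) there was an end of a different coding gene, whereas 33.0% of all anchors in the list lay at a coding-gene end. The interval covers counting error only, and neighbouring bins are not independent. By gene, the counts were 3 of 24 at Zeb1, 2 of 75 at Zeb2, 4 of 9 at Snai1, 2 of 16 at Snai2 and 0 of 1 at Twist1. The pooled share therefore rests mostly on Zeb2, whose 69 upstream partner bins could hold no such end. The nearest coding gene on that side starts 3697 kb away, and no listed interaction spans more than 1000 kb. The pooled share and the 33.0% are thus not on equal terms. After joining of adjacent interactions the share was 18.8%, as 9 of the 48 contacts that have a partner bin outside the gene. The 1 other joined contact lay wholly within Zeb2. A joined contact was counted if any of its partner bins held such an end. The 33.0% was not joined, so it is not comparable with the 18.8%.

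The genes through which these factors act were counted by the same definition. Of 26 genes of partners, co-repressors and regulators of the proteins, 25 had an interaction, with a median of 12.5. They were led by Tcf4, an E protein gene, with 102, Fbxw7, a ubiquitin ligase subunit gene, with 85, and Id2, an inhibitor of E proteins, with 50. The co-repressor genes Ctbp2, Kdm1a and Hdac1 had 26, 15 and 9, and were named after their values were seen. Of others in the group, Sin3a had 21 and Ezh2 had 11. Lower counts were those of Ctbp1 with 6, Hdac3 with 5, Rcor1 with 3 and Suz12 with 2. Hdac2, another deacetylase gene, had 0. Of 13 related repressors or opposing factors, 9 had an interaction (69.2%, near the share of all coding genes), with a median of 2. Esrp1, a splicing regulator of epithelial cells, had 11, Prrx1, a mesenchymal homeobox gene, had 9 and Ovol1, an epithelial repressor gene, had 8. Snai3 and Twist2, the closest relatives of the Snail and Twist genes, had 0, as did Gsc and Tcf15.

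Of 15 epithelial target genes, 10 had at least 1 interaction (66.7%, near the share of all coding genes), and the median was 6. Tjp1, a tight-junction scaffold gene, had 45, Cdh3 and Krt8 had 15 each, and Cdh1, named after its value was seen, had 12. Cldn3, Cldn4, Dsp, Pkp2 and Epcam, of tight junctions, desmosomes and epithelial adhesion, had 0. Of 14 mesenchymal genes, 13 had at least 1 interaction, and the median was 7. Fn1, encoding fibronectin, had 78, Acta2, smooth-muscle actin, had 28 and Vim, vimentin, had 26, while Tagln had 0. Some list genes named with a count above 0 had bins that also held an end of a different coding gene, so their counts are shared. They were Ctbp2, Kdm1a, Hdac1, Sin3a, Ezh2, Hdac3, Esrp1, Ovol1, Krt8, Fn1 (with Atic) and Acta2. Over the whole list of 74 genes, 59 had an interaction (79.7%, exact 95% interval 68.8 to 88.2%), with a median of 6, beside 67.8% and a median of 3 for all coding genes. A microRNA gene is not a coding gene, and these groups differ in gene length, so the groups were not compared further.

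**Figure D5:**
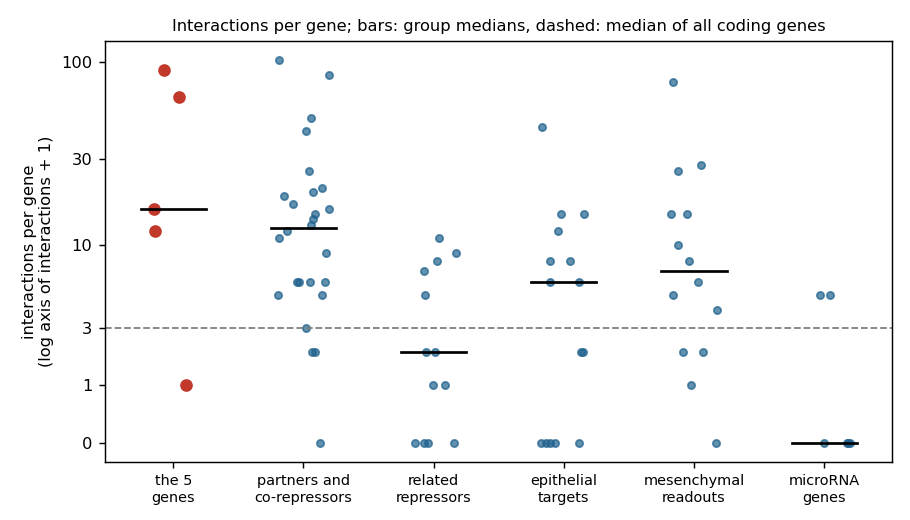
Interactions per gene (log axis of interactions + 1) for the 5 genes (red) and for the 5 groups of partner and target genes (blue), with black bars at group medians and a dashed line at the median of all coding genes (3). The group of partners and co-repressors has a median of 12.5 and that of related repressors a median of 2.

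The microRNAs of the miR-200 family pair with the messenger RNAs of Zeb1 and Zeb2 through their seed, bases 2 to 8, and ZEB proteins in turn repress the microRNA genes. Their mature 3p sequences (RefSeq, GRCm38.p6) are shown because they fall into 2 seed groups that do not match their 2 genomic clusters. Capitals mark the seed.
miR-200b-3p, chromosome 4: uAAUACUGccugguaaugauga
miR-429-3p, chromosome 4: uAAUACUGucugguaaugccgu
miR-200c-3p, chromosome 6: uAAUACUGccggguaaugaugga
miR-200a-3p, chromosome 4: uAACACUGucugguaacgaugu
miR-141-3p, chromosome 6: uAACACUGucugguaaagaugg

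The first 3 share the seed AAUACUG, and the last 2 share AACACUG. Each seed group had members in both clusters, and the bins that hold the clusters differed in the list. Mir200c and Mir141 on chromosome 6 had the same 5 interactions, in bins that also hold ends of Ptpn6, Phb2 and Emg1. Mir200a, Mir200b and Mir429 on chromosome 4, in bins that also hold an end of Ttll10, had 0. So had Mir205, a further microRNA gene that targets the ZEB messenger RNAs. As the bins are shared with coding genes, the difference cannot be assigned to the microRNA genes.

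The tumor tissue can hold several cell types, and the list does not say in which a contact was present. By the same definition, the 6 radial glia and progenitor markers scored had a median of 17 interactions, the 5 scored oligodendrocyte lineage markers 8, the 6 endothelial markers 9.5, the 6 pericyte and fibroblast markers 4, the 7 microglial markers 3 and the 5 neuronal markers 2. At least 1 interaction was listed at 6 of 6, 5 of 5, 5 of 6, 5 of 6, 7 of 7 and 4 of 5 of these markers, in the same order, beside 67.8% of all coding genes. These counts were not adjusted for span, which ran from 2 bins at Sox2 to 53 bins at Syt1. Several markers, Pax6 and Spi1 among them, also share bins with an end of a different coding gene. The order of the groups is therefore no measure of cell type content. The part of any of these cell types in the contacts of the ZEB, SNAIL and Twist1 genes was not tested.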

How the data were processed

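The deposited file holds the positions of interaction anchors (bins of 10 kb, mm10), per the file header, with no other value. Per the submitters' processing notes, BWA and mm10 were used, while the interaction caller, its threshold and the pooling of libraries were not given in the sources used here. As to the name, the authors' file name calls the interactions significant.

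Gene positions came from the RefSeq table of GRCm38.p6. Interactions, joined contacts, partner bins and distances were counted with Python 3.11.15, pandas 2.3.3 and numpy 2.4.6, and exact (Clopper-Pearson) 95% intervals with scipy 1.17.1. The lookup of interactions and a small case of joining were tested on simulated data. The assignment of genes to bins was common to the count and its reference, so it was not tested. Promoter and microRNA sequences were copied from RefSeq tables, in which promoters of Zeb2, Snai1 and Twist1 were matched. No promoter of Zeb1 or Snai2 was matched, so neither gene was searched for motifs.

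The 5 genes, the gene lists and the alternatives were chosen with earlier results of these data known. Genes named besides the 5 were those with an end in a partner bin, the leading 3 and those at 0 in each list group, and the 3 nearest in count. Neighbouring genes within 1 Mb were named after their values were seen. No test across libraries was possible with 1 list.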

Additional observations from a re-analysis of the deposited data

How the results depend on the processing

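No paired analysis was possible because values per library are lacking from the list, and for the same reason no library could be left out. Of 63 values under the 7 alternatives, 46 stayed within the limits set for them (1.5 times for a count, the exact interval for a share). Joining adjacent interactions lowered the counts to 20 at Zeb1, 17 at Zeb2, 2 at Snai1, 9 at Snai2 and 49 over the 5 genes, since many interactions then count as 1. With the ends of the gene alone, Zeb1 had 22, since its gene body is left out. With the midpoint of the bin in place of any overlap, Snai1 had 3 and Twist1 had 0, as their leading bins have midpoints outside the windows. Among interactions with an adjacent one, Twist1 had 0. The share of coding genes with an interaction was 65.7% with a window of 0 kb, 69.5% with 5 kb, 65.7% for ends, 60.3% by midpoint, 65.9% at 50 kb or more and 61.2% among interactions with an adjacent one. The share of partner bins at another gene's end was 4.24% by midpoint. After joining it was 18.8%, with joined contacts in place of bins as the unit. Depth is unknown, so a bin without an interaction was not detected in this list rather than shown to lack contact.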

Other observations

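The 3 coding genes nearest to each of the 5 genes in number of interactions were taken from those that span as many bins. Zeb2 had 91 interactions in 17 joined contacts, against 91 in 14 at Lrrc28, 80 in 17 at Xxylt1 and 102 in 11 at Susd1. Zeb1 had 65 interactions in 20 joined contacts, against 63 in 10 at Myo10, 47 in 10 at Mthfd1l and 42 in 6 at Dip2b. Snai2 had 16 interactions in 9 joined contacts, and Odf3, Mrpl12 and Shisa4 had 16 each, in 7, 3 and 3 joined contacts. Snai1 had 12 interactions in 2 joined contacts, and Bcdin3d, Rab26 and Ldhd had 12 each, in 4, 3 and 2 joined contacts. Twist1 had 1 interaction, as had Frat2, Gm38999 and Myl7. Likeness was measured on 1 list only, as the difference in the number of interactions.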
